A study of Rattus norvegicus with 15 samples.

Results

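Heat shock proteins and molecular chaperones were examined through 10 genes chosen by name: Hspa1b, Hspa5, Hspa8, Hsp90aa1, Hsp90ab1, Hsph1, Dnajb1, Hspb1, Hspd1 and Hspe1. Each was found by its symbol on 1 row of a table of 34357 rows with a gene identifier, and all 10 passed the filter on low values in each comparison. The RNA came from Dahl salt-sensitive (SS) rats, an inbred strain that becomes hypertensive on dietary salt, and was sequenced from kidney cortex and from mesenteric artery. The rats were wild-type or carried a deletion (labelled KO) that removes 30.4 kb of noncoding sequence, from position 60825801 to 60856216 of chromosome 2 in the rn7 build. The question of the design was which genes that deletion influences. The wild-type group had 4 arteries and 3 kidneys and the deletion group 4 of each tissue, all from samples titled male; no age or treatment is given in the sources used here. The labels name no transgene or Cre that would limit the deletion to a cell type. Nothing in the labels says that the libraries come from separate animals, so every p-value measures the spread between these libraries, which may be partly technical. None of the 10 genes lies on chromosome 2.

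Chaperones bind unfolded or partly folded proteins and keep them from aggregating. The Hsp70 proteins work in cycles of ATP hydrolysis that J-domain proteins such as Dnajb1 start and nucleotide exchange factors such as Hsph1 complete, and clients pass on to Hsp90. Heat shock factor Hsf1 raises many of these genes in stressed cells by binding inverted repeats of the unit GAA, while the unfolded protein response of the endoplasmic reticulum raises others. In the vessel wall small heat shock proteins are known for their association with the actin cytoskeleton, and in the kidney the tubule cells are rich in mitochondria, whose own chaperonin is Hspd1 with its lid Hspe1.

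Several libraries stood apart from the rest of their tissue. Haemoglobin RNA took 33.0% of the summed FPKM (fragments scaled by gene length and library size, the deposited unit) of artery wild-type 4 and 1.61% to 12.0% of the other arteries. Markers of intestinal epithelium summed to 42.4 FPKM in artery wild-type 1 against 0.607 to 4.97 in the other arteries. In the library labelled kidney wild-type 3, Xist stood at 81.1 FPKM and the Y-linked Eif2s3y at 0, against its male title. Rn7sl1, a small cytoplasmic RNA, took 22.0% of the sum in kidney deletion 2 and 8.23% to 15.1% in the other kidneys. In artery deletion 4 Rn7sl1 took 12.7%, against 1.89% to 8.03% in the other arteries. Markers of B cells and plasma cells summed to 215 FPKM in artery wild-type 3, 138 in artery deletion 2 and 61.6 in artery deletion 3. In the other arteries they summed to between 5.35 and 17.5 FPKM. The mesothelial marker Msln stood at 82.0 FPKM in artery deletion 2 and at 0.586 to 28.2 in the other arteries. Smooth muscle markers summed to between 1421 and 2898 FPKM in artery and between 37.4 and 77.5 in kidney, and proximal tubule markers to between 3227 and 6131 in kidney and between 81.4 and 127.9 in artery, where Aqp1, a water channel also known from endothelium, averaged 105 FPKM. The other 8 tubule markers summed to between 1.61 and 7.85 FPKM in artery and between 3037 and 5836 in kidney. The arteries also carried fat: the adipocyte hormone Lep averaged 55.6 FPKM there and was listed at 0 in 3 of the 7 kidneys. Of the adipocyte list, Pck1 alone went the other way, at 79.4 FPKM in artery and 1486 in kidney. With Pck1 included, the list summed to between 1756 and 3353 FPKM in artery and between 1145 and 1877 in kidney, so the sums overlapped.

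The promoters are shown first, because some of the 10 genes are known for 2 kinds of stress element, and the search for these needs no expression value. RefSeq promoters on the GRCr8 build (another build than that of the expression table) were matched for 8 of the 10 genes, not for Hspa1b or Hsp90aa1; each window runs from 250 bases before to 50 after the annotated start. The search used both strands and the letters GAANNTTC and TTCNNGAA for pairs of heat shock units, GAANNTTCNNGAA and its reverse complement TTCNNGAANNTTC for 3 units in a row (these contain the pairs), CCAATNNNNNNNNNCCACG for the endoplasmic reticulum stress element, CCAAT and TATAAA. In the sequences below capitals mark heat shock units, or the stress element in Hspa5. Those of Hspa8 (chr8:50080264-50080563, plus strand), Hsph1 (chr12:10427118-10427417, plus strand) and Hspb1 (chr12:26432252-26432551, minus strand) show cytosolic genes with heat shock units.
Hspa8: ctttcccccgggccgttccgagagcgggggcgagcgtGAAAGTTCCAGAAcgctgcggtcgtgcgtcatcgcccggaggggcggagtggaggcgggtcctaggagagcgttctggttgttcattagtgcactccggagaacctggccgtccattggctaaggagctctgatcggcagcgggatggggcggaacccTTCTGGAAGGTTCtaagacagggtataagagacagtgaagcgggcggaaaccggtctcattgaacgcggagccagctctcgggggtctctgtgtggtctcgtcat
Hsph1: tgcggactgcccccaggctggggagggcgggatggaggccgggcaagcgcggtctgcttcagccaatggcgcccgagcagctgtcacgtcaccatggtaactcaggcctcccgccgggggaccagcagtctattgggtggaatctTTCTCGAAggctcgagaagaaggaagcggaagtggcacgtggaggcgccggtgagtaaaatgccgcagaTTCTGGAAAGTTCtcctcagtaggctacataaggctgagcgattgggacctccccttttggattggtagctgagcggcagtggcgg
Hspb1: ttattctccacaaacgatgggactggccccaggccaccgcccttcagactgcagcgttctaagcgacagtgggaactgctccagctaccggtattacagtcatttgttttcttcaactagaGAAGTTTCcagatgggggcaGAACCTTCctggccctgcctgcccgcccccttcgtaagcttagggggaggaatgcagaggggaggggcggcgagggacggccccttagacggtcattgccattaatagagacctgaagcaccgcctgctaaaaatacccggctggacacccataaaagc

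Hspa5, the endoplasmic reticulum member, is shown for contrast (chr3:38452766-38453065, plus strand). Its window held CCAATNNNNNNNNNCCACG from position -43 to -25 relative to the start, which is counted as 0, and no pair of heat shock units.
Hspa5: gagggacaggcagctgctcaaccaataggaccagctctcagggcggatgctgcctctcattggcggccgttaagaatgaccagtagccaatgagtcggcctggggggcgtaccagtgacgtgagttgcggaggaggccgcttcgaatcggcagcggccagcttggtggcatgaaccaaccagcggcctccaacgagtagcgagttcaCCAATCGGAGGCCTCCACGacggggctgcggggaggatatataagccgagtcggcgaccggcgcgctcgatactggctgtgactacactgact

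The windows of Hspd1 (chr9:64083988-64084287, minus strand) and Hspe1 (chr9:64084077-64084376, plus strand) are shown together because these genes sit head to head and share 211 of 300 bases, read from opposite strands. The run of heat shock units is one and the same stretch of DNA, at -242 to -225 from the start of Hspd1 and at -65 to -48 from that of Hspe1.
Hspd1: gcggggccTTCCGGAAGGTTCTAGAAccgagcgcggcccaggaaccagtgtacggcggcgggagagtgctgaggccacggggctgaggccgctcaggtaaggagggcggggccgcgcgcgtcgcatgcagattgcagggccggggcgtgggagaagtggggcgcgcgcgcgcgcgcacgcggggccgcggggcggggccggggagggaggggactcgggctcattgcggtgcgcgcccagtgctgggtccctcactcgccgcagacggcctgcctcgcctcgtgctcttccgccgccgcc
Hspe1: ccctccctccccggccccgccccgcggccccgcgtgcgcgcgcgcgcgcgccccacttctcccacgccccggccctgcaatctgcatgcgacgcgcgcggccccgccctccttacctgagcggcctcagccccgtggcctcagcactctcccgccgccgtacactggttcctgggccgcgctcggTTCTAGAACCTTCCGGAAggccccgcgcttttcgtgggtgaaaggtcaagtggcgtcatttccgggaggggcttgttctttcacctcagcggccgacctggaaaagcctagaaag

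A pair of heat shock units in either form was present in 6 of the 8 matched promoters (Hspa8, Hsph1, Dnajb1, Hspb1, Hspd1 and Hspe1) and in 15.9% of all 33469 promoters of the same length. Taken singly, GAANNTTC occurred in those 6 and in 8.59% of all promoters, and TTCNNGAA in 4 and in 8.77%. A run of 3 units occurred in 4 of the 8 (Hspa8, Hsph1, Hspd1 and Hspe1) and in 0.798% of all promoters. The stretch that Hspd1 and Hspe1 share is counted for both genes in these numbers. The endoplasmic reticulum stress element occurred in Hspa5 alone among the 8, and in 22 promoters (0.0657%) in all. The window of Hsp90ab1 held neither that element nor a pair of heat shock units. CCAAT was found in 5 of the 8 and in 37.5% of promoters, and TATAAA in 0 of the 8 and in 14.2%. Dnajb1 held its GAANNTTC pairs at -11 to -4 and at 17 to 24. Such matches describe letters in a window and are not measured binding.

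The levels of the 10 genes covered a wide range, and their order differed between artery and kidney. FPKM is scaled by gene length, so levels can be compared between genes. In artery Hspa8, the constitutive cytosolic Hsp70, was highest at 249 FPKM ± 28.1 (SD, n = 8), followed by the constitutive Hsp90 gene Hsp90ab1 at 192 ± 12.0, and neither range of libraries overlapped that of the next gene. Hsp90aa1 (85.2 ± 12.8), Hspa5 (81.5 ± 9.46) and Hspe1 (75.8 ± 19.8) followed with overlapping ranges, then Hspd1 (38.3 ± 3.59) and Hspb1 (33.1 ± 10.1). Hspa1b (14.3 ± 12.6), Hsph1 (14.0 ± 4.17) and Dnajb1 (12.8 ± 3.35) closed the artery order and could not be ranked beyond their spread. In kidney the order was Hspa8 (666 ± 123, n = 7), Hspe1 (376 ± 102), Hsp90ab1 (290 ± 34.2), Hspd1 (208 ± 42.3), Hspa5 (135 ± 29.1) and Hsp90aa1 (110 ± 15.2), with each range overlapping the next. Hsph1 (28.8 ± 4.56), Dnajb1 (16.1 ± 3.57) and Hspb1 (5.39 ± 1.61) each lay below the gene before with no overlap, and Hspa1b (3.87 ± 1.81), the stress-inducible Hsp70, overlapped Hspb1 at the bottom. Together the 10 genes made up 0.177% to 0.301% of the summed FPKM in artery and 0.297% to 0.538% in kidney.

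**Figure D1:**
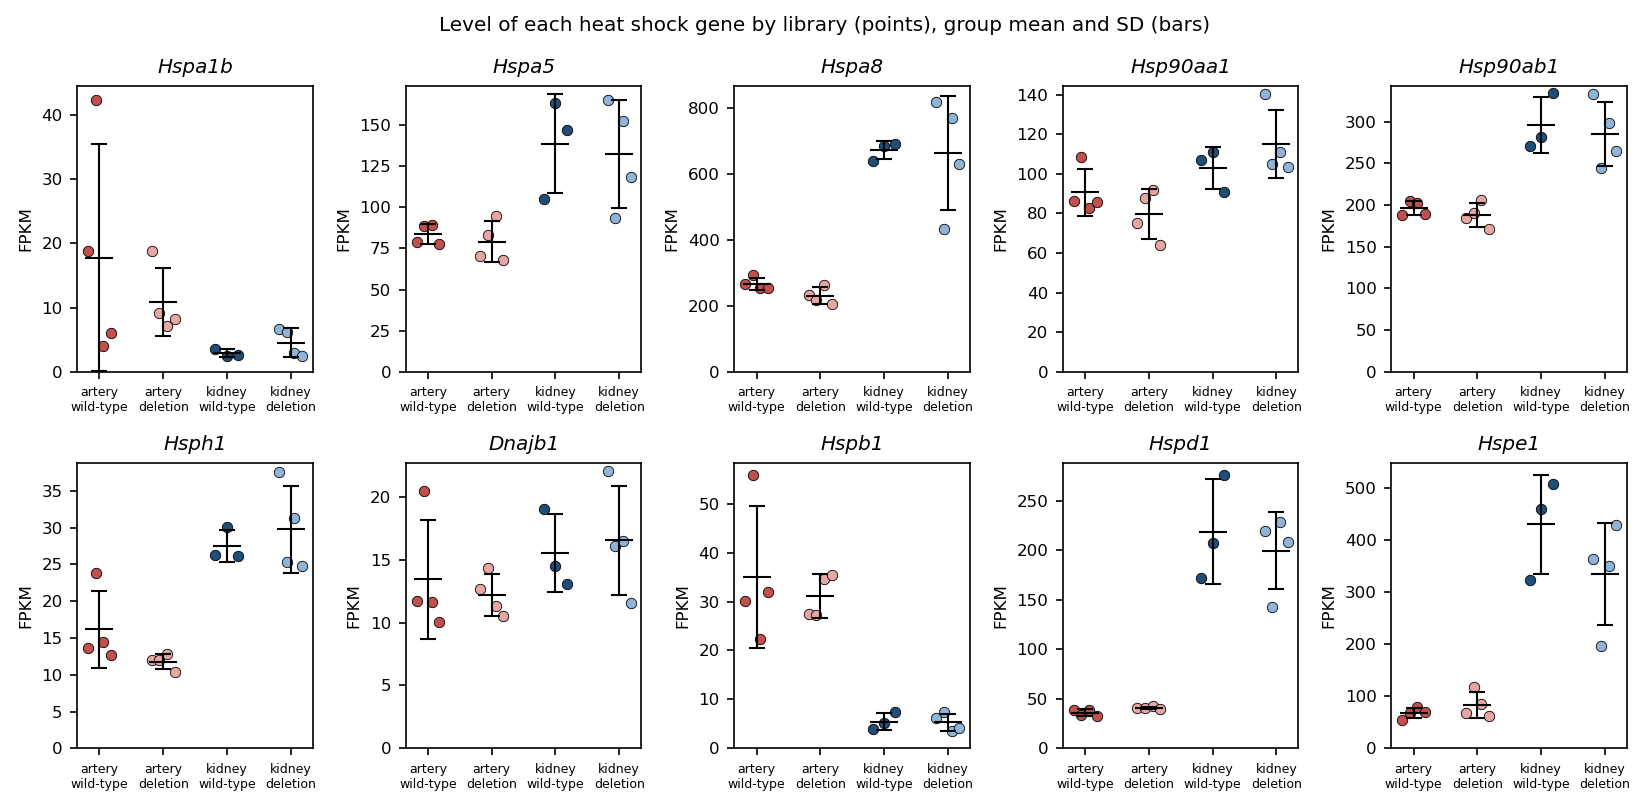
FPKM of each of the 10 genes (linear axes from 0) in every library (points) by group, with the group mean and SD as bars; n is 4 in each group but the 3 wild-type kidneys. Hspd1 and Hspe1 stand apart by tissue in the direction of kidney and Hspb1 in the direction of artery, and 1 wild-type artery reaches 42.4 FPKM of Hspa1b.

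The tissue was the contrast in which the chaperone genes differed. Of the 10 genes 9 passed the test between artery and kidney (limma on log2(FPKM + 0.5), 15 libraries, Benjamini-Hochberg adjusted p under 0.05), 2 higher in artery and 7 higher in kidney. Over the 16856 genes tested, 41.8% were called higher in artery and 35.2% higher in kidney, so a call by itself is common in this contrast and the count of 9 is not particular to these genes. The median difference of the 10 genes was -0.65 on the log2 scale, artery minus kidney, against 0.11 over all genes tested. The tissues did not overlap for 6 of the 10, against 50% of all genes. With scaling by median-of-ratios the median of all genes moved from 0.11 to -0.03 and the calls to 6199 higher and 6792 lower in artery, and each of the 10 genes kept its direction. In bulk RNA a smaller number of cells of a type and less RNA per cell cannot be told apart. Fitted on the other 12 libraries, without artery wild-type 1 and 4 and kidney wild-type 3, 9 members were called again.

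The mitochondrial pair differed most among the genes higher in kidney. Hspd1 encodes the chaperonin of the mitochondrial matrix; the wild-type arteries held 38.4, 33.6, 39.0 and 32.2 FPKM, the deletion arteries 40.6, 41.0, 42.4 and 39.3, the wild-type kidneys 172, 208 and 276, and the deletion kidneys 220, 143, 228 and 208. The lowest kidney, at 143 FPKM, was far above the highest artery, at 42.4. The log2 difference, artery minus kidney, was -2.41 (SE 0.12, limma adjusted p = 2.87e-11). Hspe1 encodes the co-chaperonin that caps the Hspd1 cavity; the wild-type arteries held 54.9, 68.4, 80.1 and 68.9 FPKM, the deletion arteries 68.0, 119, 85.7 and 61.5, the wild-type kidneys 324, 460 and 507, and the deletion kidneys 364, 197, 350 and 429. Kidney deletion 2 was the lowest kidney for both genes and kidney wild-type 3 the highest. The log2 difference of Hspe1 was -2.31 (SE 0.18, limma adjusted p = 9.92e-09). The ratio of Hspe1 to Hspd1 ran from 1.43 to 2.89 in artery and from 1.38 to 2.22 in kidney, so the pair kept similar proportions although both levels differed. The gene models of the pair overlap by 100 bp on opposite strands on rn7 (Hspd1 at 56579195 to 56590011, minus strand, and Hspe1 at 56589912 to 56593000, plus strand, chromosome 9), and the strand setting of the counting is not stated, so reads from the overlap cannot be assigned. Proximal tubule markers were lowest in kidney deletion 2 (3227 FPKM summed) and highest in kidney wild-type 3 (6131), as Hspd1 was; their part in the tissue difference or in this spread was not tested.

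The other mitochondrial chaperones and proteases were also mostly higher in kidney: of 12 tested, 10 were called higher in kidney and 1 higher in artery, with a median of -0.96. Grpel1, a nucleotide exchange factor of the mitochondrial Hsp70, averaged 21.5 FPKM in artery and 83.0 in kidney (log2 difference -1.94, limma adjusted p = 9.63e-11). Hspa9, the mitochondrial Hsp70 itself, averaged 42.4 and 151 FPKM (-1.83, limma adjusted p = 9.17e-11).

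The cytosolic Hsp70 and Hsp90 genes were higher in kidney by smaller amounts. Hspa8 stood at 265, 293, 255 and 254 FPKM in wild-type arteries, 234, 217, 264 and 207 in deletion arteries, 640, 684 and 690 in wild-type kidneys, and 818, 433, 768 and 630 in deletion kidneys. The lowest kidney, deletion 2, was still above the highest artery. The log2 difference of Hspa8, artery minus kidney, was -1.41 (SE 0.13, limma adjusted p = 7.3e-08). Hsp90ab1 stood at 188, 205, 203 and 190 FPKM in wild-type arteries, 185, 190, 206 and 171 in deletion arteries, 271, 282 and 335 in wild-type kidneys, and 333, 244, 299 and 265 in deletion kidneys. It was the steadiest of the 10 in artery, where the highest library was 1.21 times the lowest, and its tissues did not overlap (log2 difference -0.59, SE 0.09, limma adjusted p = 3.49e-05). Hsp90aa1, the Hsp90 gene that stress raises further, stood at 86.3, 108, 82.7 and 85.5 FPKM in wild-type arteries, 75.0, 87.7, 91.8 and 64.0 in deletion arteries, 107, 111 and 90.7 in wild-type kidneys, and 140, 105, 111 and 104 in deletion kidneys. The tissues overlapped, since artery wild-type 2 lay above several kidneys, and the log2 difference was -0.36 (SE 0.11, limma adjusted p = 0.00667). The ratio of Hsp90ab1 to Hsp90aa1 was 1.90 to 2.67 in artery and 2.33 to 3.69 in kidney, highest in the library labelled kidney wild-type 3.

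Hsph1 and Dnajb1, the partners that drive the Hsp70 cycle, were among the lower genes. Hsph1 held 13.6, 23.9, 14.4 and 12.7 FPKM in wild-type arteries, 12.0, 12.0, 12.8 and 10.3 in deletion arteries, 26.2, 30.1 and 26.2 in wild-type kidneys, and 37.5, 25.4, 31.3 and 24.8 in deletion kidneys. Artery wild-type 2 came close to the lowest kidney without reaching it, and the log2 difference was -1.04 (SE 0.13, limma adjusted p = 2.11e-06). Dnajb1 held 11.7, 20.4, 11.6 and 10.03 FPKM in wild-type arteries, 12.6, 14.3, 11.3 and 10.5 in deletion arteries, 19.0, 14.5 and 13.1 in wild-type kidneys, and 22.1, 16.1, 16.5 and 11.5 in deletion kidneys. It was the only one of the 10 that did not pass between tissues: the log2 difference was -0.32 (95% confidence interval -0.65 to 0.02, limma adjusted p = 0.0772). That outcome rested on single libraries and on the scaling. The difference was -0.42 (limma adjusted p = 0.00901) without artery wild-type 2, -0.40 (limma adjusted p = 0.028) without kidney deletion 4, and -0.47 (limma adjusted p = 0.00807) with median-of-ratios scaling.

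The wider cytosolic lists held more genes called higher in kidney than in artery, and the Hsp70 list held both. Of 24 other genes of the cytosolic Hsp70 system, 7 were called higher in artery and 12 higher in kidney (median -0.38). Over all genes tested the shares were 41.8% higher in artery and 35.2% higher in kidney, as given above. Hspa12b, a distant Hsp70 relative known from endothelium, averaged 16.2 FPKM in artery and 2.36 in kidney (log2 difference 2.54, limma adjusted p = 2.49e-10), and Hspa4l, an exchange factor related to Hsph1, averaged 1.01 and 4.54 (-1.74, limma adjusted p = 5.71e-10). Of 13 Hsp90 co-chaperones, 2 were called higher in artery and 8 higher in kidney (median -0.31). Fkbp4, an immunophilin of steroid receptor complexes, averaged 14.9 and 35.3 FPKM (-1.22, limma adjusted p = 1.2e-08), and the phosphatase Ppp5c 8.92 and 21.1 (-1.19, limma adjusted p = 1.47e-07). The cytosolic chaperonin TRiC and its feeder prefoldin were called higher in kidney for 11 of 13 genes and higher in artery for 0 (limma, 11 at an unadjusted p under 0.05, median -0.59). Pfdn6 averaged 6.76 and 19.6 FPKM (-1.43, limma adjusted p = 2.38e-06) and Cct6a 32.1 and 63.7 (-0.97, limma adjusted p = 3.86e-08). The heat shock factors split: Hsf1, named after its values were seen, was higher in artery (7.58 and 5.81 FPKM, log2 difference 0.36, limma adjusted p = 0.00507), whereas Hsf2 (6.91 and 10.1, -0.51, limma adjusted p = 0.000118) and the Hsf1-binding inhibitor Hsbp1 (72.6 and 101, -0.47, limma adjusted p = 0.000765) were higher in kidney.

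Hspb1, the small heat shock protein also called Hsp27 or Hsp25, had the opposite distribution. It stood at 30.1, 55.8, 22.3 and 32.0 FPKM in wild-type arteries, 27.4, 27.2, 34.6 and 35.4 in deletion arteries, 3.94, 5.10 and 7.38 in wild-type kidneys, and 6.28, 7.34, 3.57 and 4.15 in deletion kidneys. Every artery was above every kidney. The log2 difference was 2.51 (SE 0.19, limma adjusted p = 7.89e-09), a ratio of 5.68 (95% confidence interval 4.27 to 7.56) on the scale of FPKM + 0.5. Other small heat shock proteins went the same way in 4 of 5 tested genes, with 0 called higher in kidney (limma, 4 at an unadjusted p under 0.05, median 0.72). Cryab, named after its values were seen, is the highest of that list by mean and went the other way without a call. It averaged 23.1 FPKM in artery and 38.0 in kidney, where libraries ran from 10.9 to 70.8. The summed level of the list overlapped between artery (35.8 to 59.2 FPKM) and kidney (21.8 to 85.2). Hspb8 averaged 13.8 FPKM in artery and 2.57 in kidney (2.23, limma adjusted p = 1.41e-11) and Hspb7 2.60 and 0.482 (1.64, limma adjusted p = 4.05e-07). Hspb7 was under 0.5 FPKM on average in kidney and passed the filter only through its artery level, so its difference supports nothing about the list; without it 3 of 4 were called higher in artery (median 0.65). All 9 smooth muscle markers were higher in artery as well (median 5.66), and their part in the difference of Hspb1 was not tested. Of these markers, Cnn1, Actg2, Lmod1 and Myocd averaged under 0.5 FPKM in kidney and passed the filter only through artery. The count and median include those markers, whose differences support nothing about the list.

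Hspa1b was the other gene higher in artery, and its level depended most on the library. It stood at 18.8, 42.4, 3.97 and 6.05 FPKM in wild-type arteries, 18.8, 9.13, 7.21 and 8.29 in deletion arteries, 3.63, 2.53 and 2.65 in wild-type kidneys, and 6.71, 6.18, 2.95 and 2.42 in deletion kidneys. Artery wild-type 3 and 4 lay within the range of the kidneys, so the tissues overlapped. The log2 difference was 1.53 (SE 0.41, limma adjusted p = 0.00331) and 1.23 (limma adjusted p = 0.00358) without artery wild-type 2. Among arteries the highest library was 10.7 times the lowest, against 2.77 times among kidneys, and the coefficient of variation in artery was 88.2%. The ratio of the constitutive Hspa8 to Hspa1b therefore ran from 6.91 in artery wild-type 2 to 64.2 in artery wild-type 3, and from 70.0 to 271 in kidney.

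Hspa1b has a near-identical neighbour, Hspa1a, on the same strand of chromosome 20 (Hspa1b at 3870765 to 3873221 and Hspa1a at 3855104 to 3859148 on rn7), so reads can be split between them by the counting. Hspa1a stood at 13.9, 29.8, 3.03 and 5.47 FPKM in wild-type arteries, 14.3, 7.82, 5.53 and 7.13 in deletion arteries, 3.16, 2.41 and 2.61 in wild-type kidneys, and 5.04, 5.16, 2.48 and 2.36 in deletion kidneys. The ratio of Hspa1b to Hspa1a stayed between 1.02 and 1.42 while the levels themselves varied widely. Hspa1l, the testis-type relative beside them, averaged 0.331 FPKM in artery and 0.0507 in kidney. Processed copies of other members also carried values: Hspa8-ps25 averaged 9.83 FPKM in artery and 33.3 in kidney, and Hsp90aa1-ps17 29.2 and 40.9. Levels of Hspa8 and Hsp90aa1 are uncertain to the extent that reads were shared with these copies.

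**Figure D2:**
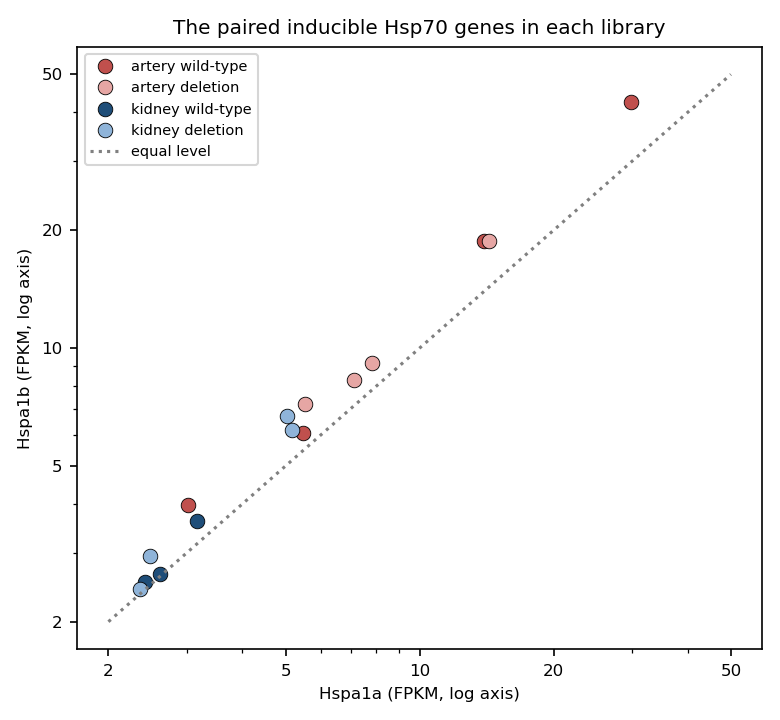
Hspa1b against Hspa1a in each of the 15 libraries (both axes FPKM on a log scale), with points coloured by group and a dotted line at equal level. The libraries lie just above the line throughout, with ratios between 1.02 and 1.42, and artery wild-type 2 is at the upper end.

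Hspa5, also known as BiP, is the Hsp70 of the endoplasmic reticulum and the sensor partner of the unfolded protein response. It stood at 79.0, 88.9, 89.5 and 77.6 FPKM in wild-type arteries, 70.3, 83.3, 94.8 and 68.1 in deletion arteries, 105, 164 and 147 in wild-type kidneys, and 165, 93.4, 152 and 118 in deletion kidneys. Kidney deletion 2 lay just within the range of the arteries and the other kidneys lay above it. The log2 difference was -0.71 (SE 0.14, limma adjusted p = 0.000194). Of 18 other endoplasmic reticulum chaperones, 13 were called higher in kidney and 2 higher in artery (median -0.36). Serpinh1, the collagen chaperone, ran against the list at 156 FPKM in artery and 51.9 in kidney (1.58, limma adjusted p = 7.79e-11), and Sdf2l1, a partner of Hspa5 in the lumen, averaged 2.93 and 6.28 (-1.08, limma adjusted p = 0.00038). Regulators of the unfolded protein response were called higher in artery for 5 of 10 and higher in kidney for 2 (median 0.27). Without Trib3, which passed the filter only through 1 tissue, the counts were 4 of 9 and 2 (median 0.07). Over all genes tested 41.8% were called higher in artery and 35.2% higher in kidney, with a median of 0.11. The artery counts lie near that share and are not particular to this list. Asns, asparagine synthetase and a target of Atf4, averaged 14.0 and 2.45 FPKM (2.30, limma adjusted p = 2.13e-09), and Ppp1r15a, which directs a phosphatase to eIF2alpha, 6.87 and 2.59 (1.28, limma adjusted p = 4.2e-06).

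**Figure D3:**
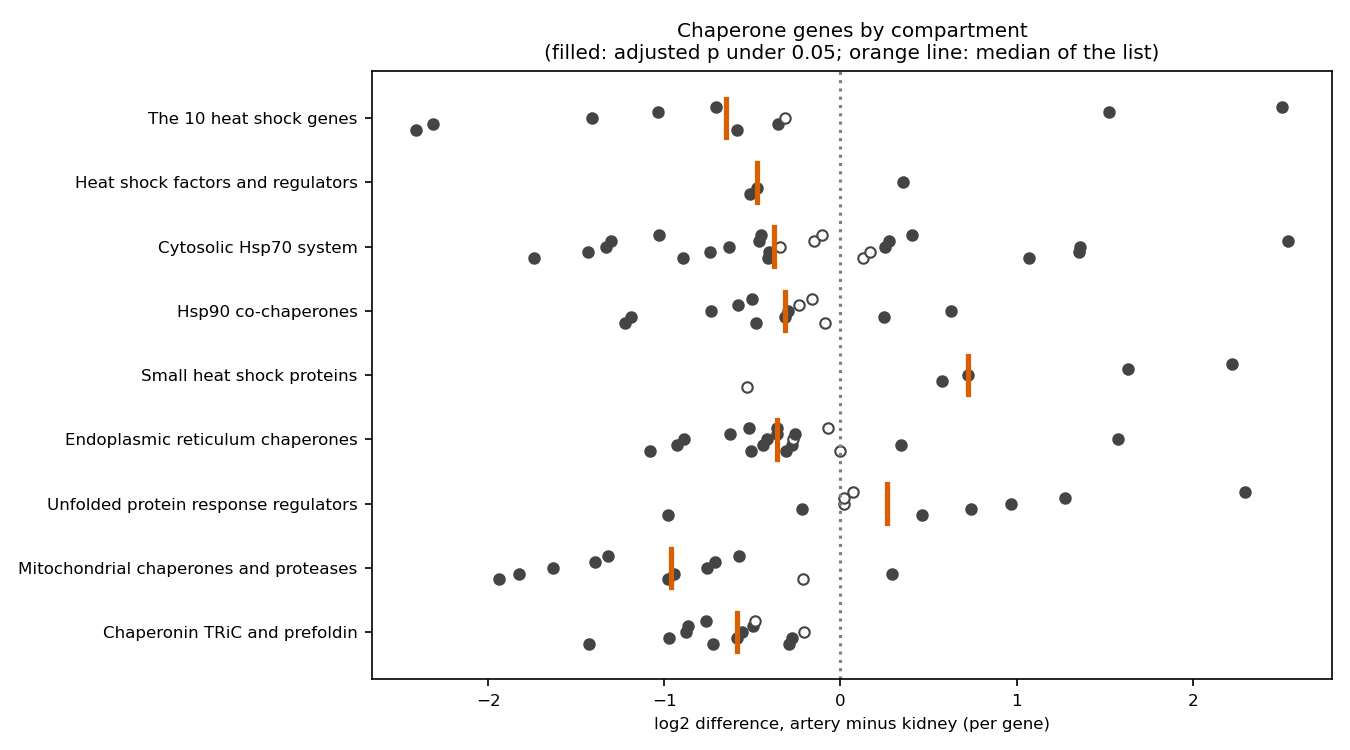
Log2 difference between artery and kidney (artery minus kidney) for the 10 heat shock genes and 8 lists of chaperone genes, 1 point per gene tested, filled where the adjusted p was under 0.05, with an orange line at the median of each list. Medians run from -0.96 for mitochondrial chaperones and proteases to 0.72 for the small heat shock proteins.

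No gene of the 10 passed the test between genotypes. In artery (4 against 4) limma called 0 of 10 at an adjusted p under 0.05, where it called 0% of 16470 genes, and 0 of 10 had an unadjusted p under 0.05, against 863 genes or 5.24%. In kidney (4 deletion against 3 wild-type) it called 0 of 10 where it called 0% of 15444 genes, and 0 of 10 had an unadjusted p under 0.05, against 217 genes or 1.41%. The adjusted p-values of the 10 ran from 0.893 to 0.962 in artery and stood at 0.999 in kidney. The median difference of the 10, deletion minus wild-type, was -0.09 in artery and -0.05 in kidney on the log2 scale, against 0.04 over all genes in each tissue. Across the 8 chaperone lists, limma called 0 of 99 tested genes between the artery genotypes, and 5 had an unadjusted p under 0.05. In kidney it called 0 of 96, and 0 had such a p. The 5 artery genes, named after their values were seen, were Chordc1, Grpel1, Hspa12b, Pdia6 and Sil1.

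The intervals show what sizes these libraries leave possible. In artery the log2 difference of Hsp90ab1 was -0.06 with a 95% confidence interval of -0.32 to 0.19, whereas that of Hspa1b was -0.24 with an interval of -1.67 to 1.20. The Hspa1b estimate followed artery wild-type 2: without that library it was 0.36, and the differences of Dnajb1 and Hspb1 turned from -0.09 and -0.10 to 0.12 and 0.15. The smallest unadjusted p among the 10 was that of Hsph1 in artery, at 16.2 FPKM ± 5.18 in wild-type against 11.8 ± 1.05 in deletion libraries (SD, n = 4 each; log2 difference -0.40, limma unadjusted p = 0.0553, adjusted p = 0.893). Without artery wild-type 2 the difference of Hsph1 was -0.20, and without artery wild-type 1 and 4 it was -0.64 (limma unadjusted p = 0.0139, adjusted p = 1). The latter fit kept only artery wild-type 2 and 3 as wild-type, at 23.9 and 14.4 FPKM of Hsph1, so artery wild-type 2 weighed more in it. Hspd1 in artery was the 1 member of 10 whose genotype groups did not overlap, against 3.25% of all genes there: 35.8 FPKM ± 3.42 in wild-type against 40.8 ± 1.25 in deletion libraries (SD, n = 4 each; log2 difference 0.19, limma unadjusted p = 0.0737, adjusted p = 0.893). The highest wild-type artery, at 39.0 FPKM, was just under the lowest deletion artery, at 39.3.

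In kidney no member had genotype groups without overlap, against 2.55% of all genes. The mean of Hspe1 was 430 FPKM ± 95.1 (SD) over the 3 wild-type kidneys and 335 ± 98.3 over the 4 with the deletion (log2 difference -0.39, limma adjusted p = 0.999). The means of Hspa1b were 2.94 ± 0.601 and 4.56 ± 2.19 FPKM (SD), with deletion 1 and 2 above every wild-type kidney, deletion 3 among them and deletion 4, at 2.42, the lowest kidney (0.46, limma adjusted p = 0.999). The remaining 8 genes differed by -0.13 (Hspd1) to 0.15 (Hsp90aa1). Without the library labelled kidney wild-type 3 the differences of Hspe1 and Hspa1b were -0.26 and 0.41, and those of Hspd1, Hsp90ab1, Hspb1 and Dnajb1 changed sign, to 0.06, 0.03, 0.18 and -0.04.

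The deletion effect was also compared between the tissues. For the interaction of tissue and genotype limma called 0 of 10 members and 0% of 16856 genes, with 740 genes and 0 of 10 members at an unadjusted p under 0.05. The interaction of Hspa1b was -0.70 (95% confidence interval -2.45 to 1.05, limma adjusted p = 0.948), that of Hspe1 was 0.65 (-0.13 to 1.43, limma adjusted p = 0.943), and that of Hsph1 was -0.49 (-1.04 to 0.06, limma adjusted p = 0.943).

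**Figure D4:**
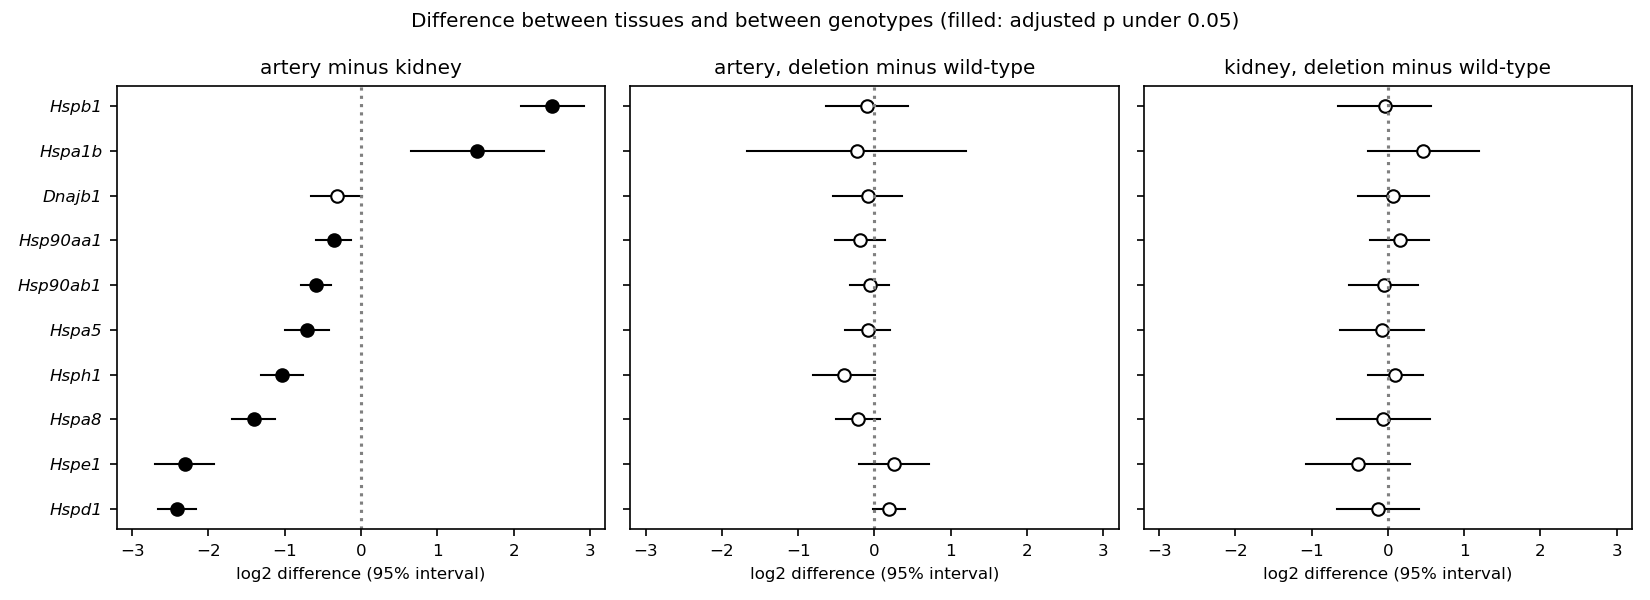
Log2 difference of each of the 10 genes with its 95% confidence interval, for artery minus kidney (left), deletion minus wild-type in artery (middle) and deletion minus wild-type in kidney (right), filled where the limma adjusted p was under 0.05. In the left panel 9 of 10 points are filled, and in the other panels none is.

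Within a tissue, several of the genes were high or low in the same library. Artery wild-type 2 held the highest level of 6 of the 10 genes (Hspa1b, Hspa8, Hsp90aa1, Hsph1, Dnajb1 and Hspb1), and the other 4 had their highest level in another library. Its deviation from the artery median was 2.22 on the log2 scale for Hspa1b, 0.87 for Hsph1, 0.84 for Hspb1, 0.79 for Dnajb1, 0.33 for Hsp90aa1 and 0.20 for Hspa8, against 0.13 for Hspa5, 0.11 for Hsp90ab1, -0.01 for Hspe1 and -0.22 for Hspd1. The 6 genes encode cytosolic proteins, as does Hsp90ab1, whereas Hspa5, Hspd1 and Hspe1 serve the endoplasmic reticulum and mitochondria. Artery wild-type 1 and artery deletion 1, each at 1.07 for Hspa1b, deviated by at most 0.11 in either direction for Hsph1 and Dnajb1. Artery deletion 4 was lowest for 5 of the 10. How often each library was highest or lowest over all genes was not counted. Such counts, here and for the kidneys below, thus have no share to be set against.

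The immediate early genes, a set of fast-responding transcripts that tissue handling and injury are known to raise, were summed beside these values. The 25 genes summed to 458, 491, 329 and 375 FPKM in wild-type arteries, 315, 331, 343 and 430 in deletion arteries, 144, 183 and 157 in wild-type kidneys, and 203, 209, 189 and 149 in deletion kidneys. Artery wild-type 2 had the highest sum of the arteries and kidney deletion 2 and 1 the highest of the kidneys, and these are also the libraries highest in Hspa1b within each tissue. Artery deletion 1, also high in Hspa1b, had the lowest sum of the arteries. The part of these genes in the levels of Hspa1b was not tested. Between tissues 19 of 24 immediate early genes were called higher in artery and 2 higher in kidney (median 1.29). The genes tested include Fos, Fosb, Egr3 and Nr4a3, which averaged under 0.5 FPKM in kidney and passed the filter only through artery. Their differences support nothing about the list, and the count and median were not taken without them. The highest of the list by mean were Klf6 (56.2 FPKM in artery and 21.3 in kidney), Dusp1 (50.9 and 6.58) and Ccn1 (41.4 and 10.1).

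In kidney other libraries were high or low. Kidney deletion 1 was highest for 6 of the 10 genes (Hspa1b, Hspa5, Hspa8, Hsp90aa1, Hsph1 and Dnajb1), and kidney wild-type 3 for the other 4 (Hsp90ab1, Hspb1, Hspd1 and Hspe1). Kidney deletion 2 was lowest for 5 (Hspa5, Hspa8, Hsp90ab1, Hspd1 and Hspe1), with deviations from the kidney median of -0.65, -0.66, -0.21, -0.54 and -0.89, yet it stood at 0.96 for Hspa1b and 0.49 for Hspb1. Rn7sl1 took its largest share in that library, as given above. Podocyte markers summed to 202 FPKM there, against 96.1 to 158 in the other kidneys, and collecting duct markers to 237, against 136 to 199. Smooth muscle markers summed to 77.5 FPKM, against 37.4 to 52.3, and proximal tubule markers were lowest there. The part of Rn7sl1 or of these cell types in the values was not tested.

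**Figure D5:**
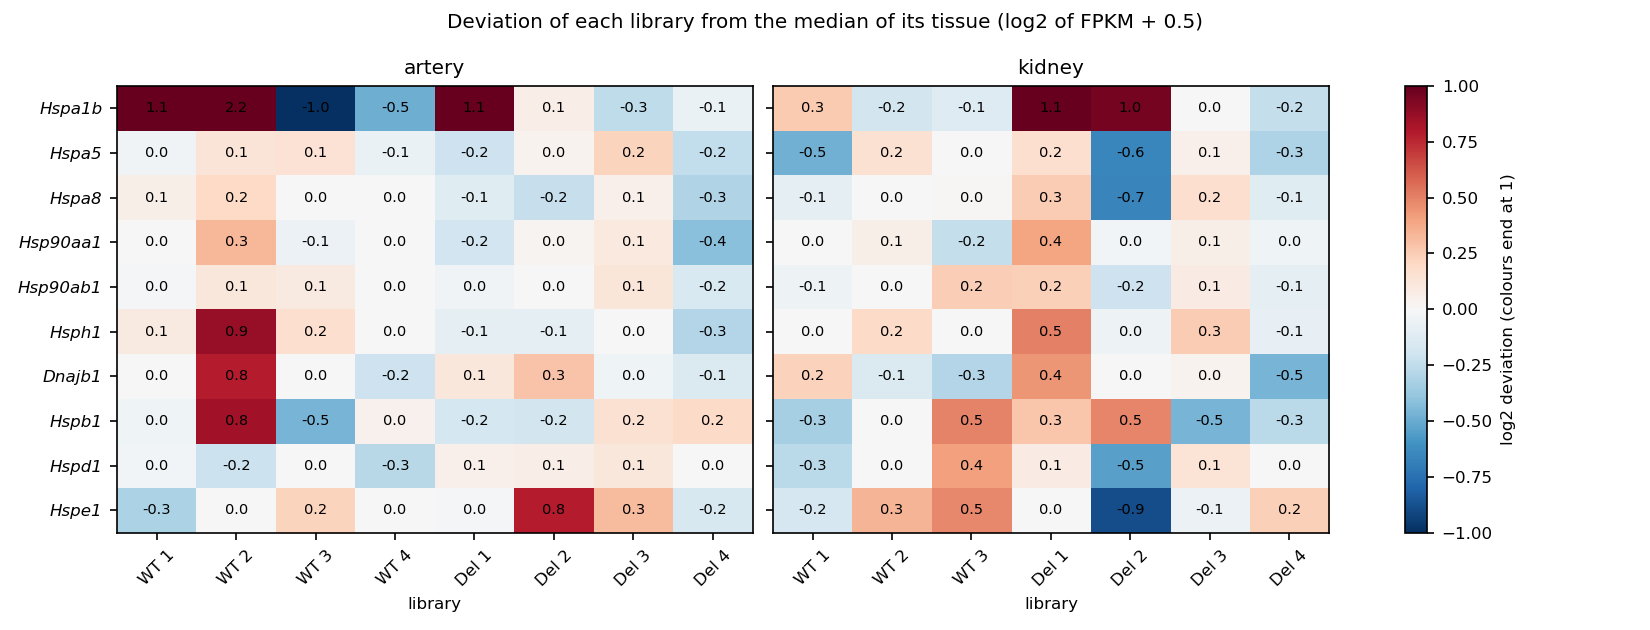
Deviation of each library from the median of its tissue on the log2(FPKM + 0.5) scale for the 10 genes (rows), in arteries (left) and kidneys (right); red is above and blue below the median, colours end at 1, and WT and Del stand for wild-type and deletion. Artery WT 2 is above the median for Hspa1b, Hsph1, Dnajb1 and Hspb1 together, and kidney Del 2 combines high Hspa1b with low Hspa5, Hspa8, Hspd1 and Hspe1.

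Genes whose variation was most like that of a member were looked for among 7156 genes with at least 5 FPKM on average in each tissue, after the mean of each tissue had been subtracted. Likeness is Pearson's r over the 15 libraries, given as a description, since the genes share libraries, depth and scaling. For Hspa1b the nearest was LOC120094548 (r = 0.847), annotated as a small nucleolar RNA, whose model on rn7 (chromosome 8, 41186057 to 41186142, plus strand) lies inside that of Hspa8 (41183397 to 41187260, plus strand). It stood at 55.5, 56.4, 10.9 and 13.3 FPKM in wild-type arteries, 33.5, 24.3, 7.25 and 21.6 in deletion arteries, 19.7, 10.3 and 6.34 in wild-type kidneys, and 21.7, 18.7, 6.25 and 8.59 in deletion kidneys. It was thus high in the arteries and kidneys that were high in Hspa1b. Among arteries Hspa8 itself varied by a factor of 1.42, from 207 to 293 FPKM. Mink1 (0.845), Wdfy3 (0.842), Fto (0.841) and Apbb2 (0.841) came next. Hspa1a averaged under 5 FPKM in kidney and was not among the genes compared.

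For Hspa5 the nearest genes included LOC680121 (r = 0.876), the pseudogene Hspa8-ps25 (0.869), Hsp90b1 (0.863), which encodes the endoplasmic reticulum Hsp90, and the lysosomal enzyme Fuca1 (0.839). Hsp90b1 averaged 122 FPKM in artery and 147 in kidney (log2 difference -0.27, limma adjusted p = 0.0666). For Hspd1 the nearest were Galm (0.965), a galactose mutarotase, Atp5mc2 (0.938), a subunit of the mitochondrial ATP synthase, Grcc10 (0.931), Akr7a2 (0.924) and Oxa1l (0.924), an insertase of the mitochondrial inner membrane. Galm stood at 92.0 FPKM in kidney wild-type 3 and 40.5 in kidney deletion 2, the same kidneys that were highest and lowest for Hspd1.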

How the data were processed

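The values analysed are the FPKM that the authors deposited in 1 table with a column per library; 1 further column belongs to no sample and was not used. Per the submitters' processing notes, the tools were HISAT2 2.2.1, Trim Galore 0.6.2 and DESeq2 1.46.0, with the rn7 build and no role given; the tool that made the FPKM values and the strand setting are not given in the sources used here. Read depth is unknown, so no counting intervals are given. Of 40694 rows, 6337 carry no identifier and were left out. Values were taken as log2(FPKM + 0.5), so fold changes of low genes are understated. Genes averaging at least 0.5 FPKM over the libraries of a comparison were tested with limma 3.58.1 in R 4.3.3 (trend and robust moderation, two-sided), with Benjamini-Hochberg adjustment over all genes tested and a call at an adjusted p under 0.05. Each tissue was fitted alone for genotype, and all 15 libraries in 4 groups for the tissue contrast and the interaction. The tests were also run on simulated data with independent noise for each gene. That simulation held no shift shared by the genes of a library, so it cannot tell how the tests behave under such shifts. Promoters come from RefSeq on GRCr8. Python 3.11.15 with matplotlib 3.10.9 drew the figures. The 10 genes and the lists were chosen with earlier results of these data known. Named were all 10 genes, their near-identical copies, the 2 genes of each of 8 chaperone lists with the largest called difference between tissues, the 3 highest immediate early genes, and the 5 genes most like Hspa1b, Hspa5 and Hspd1. Tried in place of these settings were a pseudocount of 0.1 or 1, dropping the filter or raising it to 1 FPKM, and scaling by median-of-ratios. Also tried were the replicate number as a block and leaving out each library in turn. Artery wild-type 1 and 4 and kidney wild-type 3 were also left out together, except in the kidney genotype comparison. The other libraries that stood apart were left out only singly.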

Additional observations from a re-analysis of the deposited data

Results flagged for a closer look

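Among 42 groups of 4 libraries examined, 5 held a library far from the other 3. The nominal rate of this rule, 1 in 20, is for independent, normally distributed values. The groups share libraries and genes, so the count of 5 cannot be set against that rate. Artery wild-type 2 was far above the other wild-type arteries for Hsp90aa1, at 108.25 FPKM against 82.677 to 86.288. The same library stood at 23.853 FPKM for Hsph1, against 12.738 to 14.416, and at 20.443 FPKM for Dnajb1, against 10.034 to 11.7. Artery deletion 1 stood at 18.814 FPKM for Hspa1b, against 7.2139 to 9.1333 in the other deletion arteries. The ratio of Hspe1 to Hspd1 was 1.43 in artery wild-type 1 and 2.035 to 2.142 in the other wild-type arteries.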

How the results depend on the processing

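Over 22 alternatives the number of the 10 genes called between tissues was 9 or 10, and each kept its direction. The number called for genotype or for the interaction was 0 under each alternative run. The number of all genes called for genotype in artery was 1 with a pseudocount of 0.1 (LOC120094666, named after its value was seen), and from 0 to 1 when 1 library was left out: LOC120094666 without wild-type 2 and LOC120096562 without deletion 3. In kidney it was from 0 to 1, with LOC120095881 called without wild-type 1. With median-of-ratios scaling the kidney difference of Dnajb1 was -0.00954, and the interactions of Hsp90ab1 and Hspa5 were 0.045 and 0.0375, each opposite in sign to the value given before; the cause was not tested. Leaving out 1 library changed the sign of some genotype differences that were not called. In artery these ranged from -0.208 to 0.123 for Dnajb1, from -0.729 to 0.359 for Hspa1b and from -0.283 to 0.151 for Hspb1. In kidney they ranged from -0.0751 to 0.227 for Dnajb1, -0.134 to 0.0349 for Hsp90ab1, -0.262 to 0.0785 for Hspa5, -0.177 to 0.129 for Hspa8, -0.238 to 0.175 for Hspb1, -0.285 to 0.0554 for Hspd1 and -0.0218 to 0.174 for Hsph1. The interaction ranged from -0.318 to 0.051 for Dnajb1, -0.0987 to 0.0703 for Hsp90ab1, -0.17 to 0.171 for Hspa5 and -0.273 to 0.195 for Hspb1.

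Whether the replicate numbers in the titles pair the samples is not known. The deviations of same-numbered wild-type and deletion libraries correlated at 0.321, -0.342, 0.244 and 0.302 in artery and at 0.0819, -0.00785 and 0.273 in kidney. Between same-numbered arteries and kidneys the values were 0.138, -0.0738 and 0.0193 in wild-type. In deletion libraries they were -0.0416, -0.0821, 0.231 and -0.033. Differently numbered libraries were not compared, so these values cannot settle the pairing. With the replicate number as a block, 9 of the 10 genes were called between tissues and 0 for genotype, and the kidney difference of Hspb1 was 0.0473 in place of -0.04.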
